A study of Bos taurus with 5 samples.

Results

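PAX6, SIX3, MAB21L1, LHX2, MEIS1, MEIS2, EYA2, RAX and FABP7, genes known from the development of the eye and forebrain, were followed across 5 RNA sequencing libraries from cattle (Bos taurus). They are 9 of the 27607 genes in the deposited table, each found there once by its symbol. Each library carries 1 tissue label, which is brain, skin, lung, heart or limb, and the labels' protocols describe lysed cells, a pre-amplification and library preparation on a microfluidic chip. The sources used here give no breed, age, sex or treatment, and no number of cells or animals behind a library. Values are FPKM (fragments per kilobase of transcript, scaled to the mapped total), so levels are per transcript length, although the table itself does not name the unit. The sources do not say whether reads covered whole transcripts, and if they came from transcript ends only, levels of different genes would not be comparable. The genes were selected on their values in these same libraries, so their presence is a description and is used to support nothing. With no replicates, no value below carries an error or a test.

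PAX6 is a paired-box and homeodomain transcription factor needed for eye formation and for the patterning of the forebrain. In the early embryo it is switched on in the eye field together with the homeodomain factors RAX, SIX3 and LHX2. EYA proteins act as cofactors of SIX3 and its relatives, MEIS proteins are homeodomain factors that regulate PAX6 in the lens and bind DNA with PBX partners, and MAB21L1 is needed for lens and iris growth. FABP7, a carrier of fatty acids, is a marker of radial glia and a known target of PAX6 in the brain.

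The labels were checked first on short marker lists, and few of the neuron, lung, heart and limb markers were above 0 under their own label. Among all genes, the share above 0 was 23.9% under the brain label, 18.5% under the skin label, 21.7% under the lung label, 24.0% under the heart label and 19.3% under the limb label. Of 13 neuron markers, 0 were above 0 under the brain label, and SNAP25, SYT1, STMN2 and RBFOX3 were listed at 0 in all 5. Among 13 markers of radial glia and astrocytes, FABP7 included, 5 were above 0 under the brain label. This count was 5 under the skin, 4 under the lung, 6 under the heart and 3 under the limb label. By this count the brain-labelled library was not set apart. Of 8 lung epithelium markers 0 were above 0 under the lung label, of 9 cardiomyocyte markers 1 was above 0 under the heart label, and of 12 markers of limb mesenchyme and skeletal muscle 1 was above 0 under the limb label. The skin-labelled library had 2 of 8 keratinocyte markers above 0, no lower than its share among all genes. These were KRT10 and PERP, both also above 0 under the lung, heart and limb labels. Of the same 8 markers, 3 were above 0 under the lung label and 2 each under the heart and limb labels. With lists this short and no replicates, these counts can show neither the presence nor the absence of a tissue. Each library is therefore named by its label only, and no direction below is one for a tissue. Genes above 0 numbered 5109 under the skin label to 6634 under the heart label, and their median lay between 21.4 FPKM (heart label) and 38.7 FPKM (skin label). Read totals were not analysed here. From the spacing of low values in the brain- and heart-labelled libraries, 1 read was worth a median of about 7.39 and 9.11 FPKM over 272 genes on a whole-number spacing. A median of 60 genes, and up to 255, lay on it at other depth ratios, so this level is rough and differs between genes. Each ratio was taken in lowest terms, so several reads in both libraries can count as 1 and the level may be too high. By this level values such as those of PAX6 may rest on few reads, and a gene listed at 0 may lie below what the library could show.

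PAX6 and SIX3, regulators at the start of eye formation, were above 0 in all 5 libraries, as were MEIS1 and FABP7. These are 4 of the 9 genes, where 9.44% of all genes in the table were above 0 in every library. Among the 4, MEIS1 was at 0.45 FPKM under the limb label and drops out at a minimum of 1 FPKM. MAB21L1 was above 0 in 3 libraries, EYA2 in 2, and LHX2, MEIS2 and RAX in 1 each. Of the 45 values of the 9 genes, 28 were above 0 and 22 reached 10 FPKM. A highest value of 10 FPKM or more was reached by 7 genes, while MEIS2 and RAX stayed under it everywhere. The values hold no record of single cells, so fewer cells with a transcript and less of it per cell cannot be told apart.

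**Figure D1:**
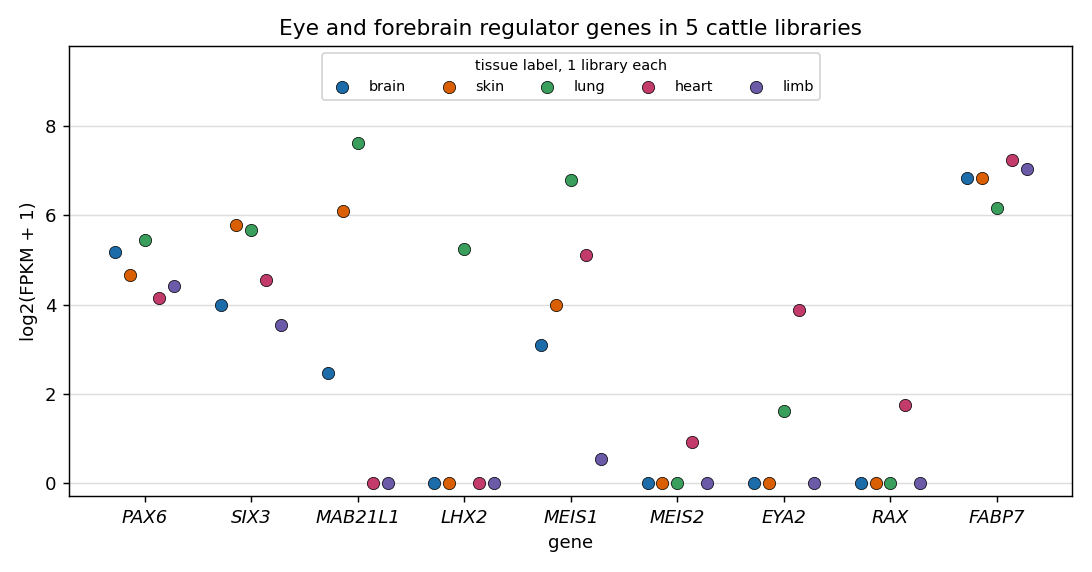
Level of each of the 9 genes as log2(FPKM + 1) on the vertical axis, with 1 point per library coloured by tissue label. FABP7 is the highest gene in 4 of the 5 libraries and PAX6 stays between 16.7 and 42.6 FPKM, while MAB21L1 and MEIS1 run from near or at 0 to 195 and 109 FPKM under the lung label.

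The regulators of the eye field are described first. PAX6 stood at 34.9 FPKM under the brain label, 24.4 FPKM under the skin label, 42.6 FPKM under the lung label, 16.7 FPKM under the heart label and 20.5 FPKM under the limb label. The lung-labelled library was highest and the heart-labelled lowest, a ratio of 2.55, and each library was within a ratio of 1.43 of its neighbour in that order. With no replicates, none of these neighbours can be said to differ. PAX6 ranked near the middle of the detected genes, at the 39.5th percentile of those above 0 under the limb label and the 59.0th under the brain and lung labels.

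SIX3, which keeps the anterior forebrain and eye field free of posteriorising signals, stood at 14.8, 54.0, 50.2, 22.3 and 10.6 FPKM under the brain, skin, lung, heart and limb labels. The skin- and lung-labelled libraries were the highest, at a ratio of 1.08 to each other, and the lung-labelled value was 2.25 times that of the heart-labelled library, the next in order. The limb-labelled library was lowest, and the skin-labelled value was 5.11 times as high. SIX3 was the higher of this pair of genes under the skin, lung and heart labels, and PAX6 was the higher under the brain and limb labels.

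LHX2, a LIM homeodomain factor of the optic vesicle and the cortical primordium, was listed at 37.1 FPKM under the lung label and at 0 in the other 4. RAX, the retinal homeobox factor at the head of the eye field, was listed at 2.37 FPKM under the heart label and at 0 in the other 4. The values of LHX2 and RAX thus lay in different libraries. That of RAX was below the rough median worth of 1 read, a level that may be too high.

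Among the cofactors and partners, EYA2, a transcriptional coactivator with phosphatase activity, stood at 13.8 FPKM under the heart label and 2.06 FPKM under the lung label and was listed at 0 under the brain, skin and limb labels. MEIS1 stood at 7.57 FPKM under the brain label, 14.8 FPKM under the skin label, 109 FPKM under the lung label, 33.5 FPKM under the heart label and 0.45 FPKM under the limb label. This was the widest range of the 4 genes above 0 throughout, and the lung-labelled value was 3.26 times the next, under the heart label. The limb-labelled value was among the smallest of its library, at the 1.30th percentile. MEIS2, the close paralog of MEIS1, was listed only under the heart label, at 0.90 FPKM.

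MAB21L1 had the largest single value of the 9 genes. It was at 195 FPKM under the lung label, 67.4 FPKM under the skin label and 4.55 FPKM under the brain label, and was listed at 0 under the heart and limb labels. The lung-labelled value, 2.89 times the skin-labelled one, placed MAB21L1 at the 85.2nd percentile of the detected genes there. The skin-labelled value was 14.8 times the brain-labelled one, so the order of the 3 libraries was lung, skin and brain label. The brain-labelled value was below the rough median worth of a read there, 7.39 FPKM, a level that may be too high. That ratio may thus rest on very few reads under the brain label.

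Of the 4 genes above 0 throughout, FABP7 varied least. It stood at 114.2 FPKM under the brain label, 113.9 FPKM under the skin label, 70.5 FPKM under the lung label, 151 FPKM under the heart label and 130 FPKM under the limb label. The highest value was 2.14 times the lowest, and 4 of the 5 libraries were within a ratio of 1.16 of their neighbour in order. FABP7 ranked between the 69.9th percentile (lung label) and the 85.8th (heart label) of the detected genes. PAX6 was highest and FABP7 lowest under the lung label, and PAX6 was lowest and FABP7 highest under the heart label.

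**Figure D2:**
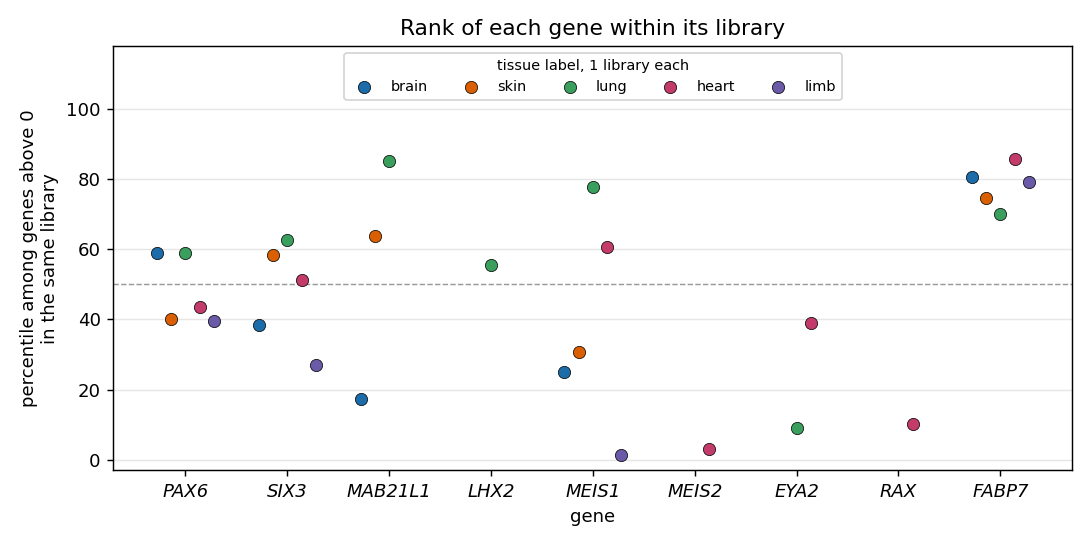
Percentile of each gene among the genes above 0 in the same library, on the vertical axis, with 1 point per library coloured by tissue label and no point where the gene is listed at 0. The dashed line marks the 50th percentile, which FABP7 passes in all 5 libraries and PAX6 under the brain and lung labels only.

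The spread of the genes was then set against that of the whole table. A gene was counted as differing between libraries when its highest value reached 10 FPKM and, with 1 added to both, was 4 or more times the lowest. SIX3, MAB21L1, LHX2, MEIS1 and EYA2, 5 of the 9 genes, met this rule. LHX2 no longer met it without the lung-labelled library, EYA2 without the heart-labelled one and SIX3 without the limb-labelled one. It was met by 83.8% of all genes with a highest value of 10 FPKM or more, so a range of this size was common in these libraries, and PAX6 and FABP7 are the ones of the 7 genes reaching 10 FPKM that did not meet it. Among the 2607 genes above 0 in all 5 libraries, 13.9% had a smaller range than FABP7, 21.5% a smaller range than PAX6, 54.7% a smaller one than SIX3 and 99.0% a smaller one than MEIS1. The median range of these genes on the log2(FPKM + 1) scale was 2.09, against 1.09 for FABP7, 1.30 for PAX6, 2.25 for SIX3 and 6.25 for MEIS1. The range of MEIS1 was 3.69 without the limb-labelled library and 4.57 without the lung-labelled one, and that of FABP7 was 0.40 without the lung-labelled one.

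A stricter rule asked for 10 FPKM in 1 library and, with 1 added, 4 or more times the value of each other library. LHX2 met it under the lung label, as did 1.6% of all genes, and EYA2 under the heart label, as did 1.33% of all genes. The EYA2 value there was 13.8 FPKM and may rest on few reads. The rough median worth of a read under the heart label was 9.11 FPKM, a level that may be too high. MAB21L1 and MEIS1 were highest under the lung label but did not meet the rule, since the skin-labelled and heart-labelled libraries came within 4-fold.

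By library, the highest value fell under the lung label for PAX6, MAB21L1, LHX2 and MEIS1, under the heart label for EYA2, MEIS2, RAX and FABP7, and under the skin label for SIX3. None of the 9 genes was highest in the brain- or limb-labelled library. The 9 genes summed to 507 FPKM under the lung label, 275 FPKM under the skin label, 240.3 FPKM under the heart label, 176 FPKM under the brain label and 161 FPKM under the limb label. Without FABP7, which holds most of the sum in the brain-, heart- and limb-labelled libraries, the sums were 436, 161, 89.6, 61.9 and 31.5 FPKM in the same order.

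Each library was also compared with the mean of the other 4 on the log2(FPKM + 1) scale. The median difference over the 9 genes was 0.85 for the lung label, where the median over the 8694 genes whose mean reached 1 FPKM was -0.16. For the heart label it was 0.52, against -0.011 over those genes, and for the brain label -0.90, against 0.15. It was -0.13 for the skin label, against -0.73, and -1.31 for the limb label, against -0.67. Of the 9 genes, 7 reached that mean, with MEIS2 and RAX below it. Leaving the lung-labelled library out of the reference brought the brain-labelled median to -0.19 and the limb-labelled one to -0.58. Without the heart-labelled library the limb-labelled median was -0.67. The 5 comparisons share libraries, so the values of one are not independent of those of the others.

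**Figure D3:**
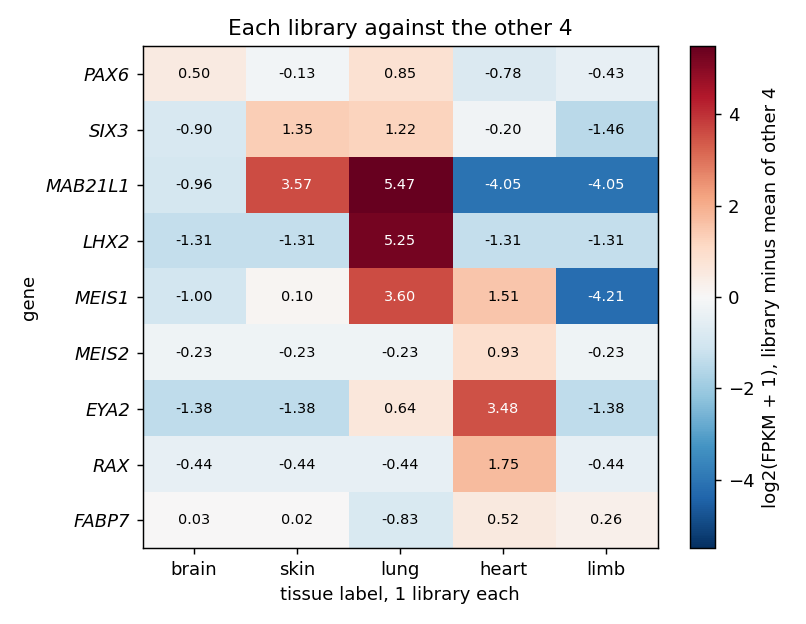
Difference in log2(FPKM + 1) between each library (columns, by tissue label) and the mean of the other 4, for the 9 genes (rows), in red where higher and in blue where lower. The lung-labelled column holds the largest positive differences, 5.47 for MAB21L1 and 5.25 for LHX2, and the limb-labelled column the lowest, -4.21 for MEIS1. Where a gene is listed at 0 the size of a difference depends on the 1 added.

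Genes that work with these regulators were looked up in lists of known partners and relatives. In the table as a whole, 35.8% of genes had a value above 0 in some library, and the median gene was at 0 in each of the 5. The lists were low in the same way, with a median of 0 in all 5 libraries for 7 of the 8 lists. Of the other 8 eye-field regulators examined, 2 were above 0 in any library. HES1, an effector of Notch signalling that keeps progenitors undifferentiated, was above 0 in all 5, at 24.5 FPKM under the brain label, 36.1 under the skin label, 106 under the lung label, 36.0 under the heart label and 63.5 FPKM under the limb label. TBX3, a T-box repressor, was listed only under the skin label, at 14.4 FPKM, and RAX2, SIX6, OTX2 and NR2E1 were listed at 0 throughout. SOX2, and SOX1, FOXC1, KRT13 and LOR of the marker lists below, were not analysed here.

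In the network of the PAX, EYA and DACH genes and the relatives of SIX3, 5 of the other 15 genes had a value above 0 in any library. PAX8, a paired-box factor of kidney and thyroid, ranged from 3.43 FPKM under the lung label to 13.6 FPKM under the heart label, and those are also the libraries where PAX6 was highest and lowest, in the reverse order. DACH1, a corepressor, was listed at 4.31 FPKM under the brain label and 8.79 FPKM under the lung label and at 0 in the other 3. EYA3 stood at 29.6 FPKM under the lung label, 9.12 FPKM under the heart label and 3.12 FPKM under the skin label, where EYA2 was higher under the heart label than under the lung label. PAX5 was listed at 1.1 FPKM under the lung label. PAX2, PAX3, PAX9 and SIX2 were listed at 0 in all 5.

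Among the TALE homeodomain factors, the class of MEIS and its partners, PBX2, PBX3 and PBX4 were listed at 0 in all 5 libraries, as was MEIS3. PKNOX1, which shares the PBX partners of MEIS, was above 0 in 4 libraries, at 42.0 FPKM under the brain label, 37.0 under the lung label, 19.7 under the heart label and 35.6 FPKM under the limb label. It was listed at 0 under the skin label, where MEIS1 was at 14.8 FPKM. The repressor TGIF1 stood at 41.6 FPKM under the brain label, 24.9 FPKM under the heart label, 7.27 FPKM under the skin label and 2.86 FPKM under the limb label and was listed at 0 under the lung label, where MEIS1 was highest. PKNOX2 was listed only under the heart label, at 11.8 FPKM, and TGIF2 only under the lung label, at 7.45 FPKM. In all, 4 of the other 9 TALE genes were above 0 in any library.

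Of the other 20 LIM homeodomain factors and cofactors, 7 were above 0 in at least 1 library. Together with LHX2, 7 of the 21 genes of this list were above 0 under the lung label, against 4 under the limb label, 3 under the brain label and 2 each under the skin and heart labels. The share of all genes above 0 was 21.7% under the lung label and 19.3% under the limb label, so the limb-labelled count lay at that of the whole table. It was 23.9%, 18.5% and 24.0% under the brain, skin and heart labels. LMO4, a LIM-only protein that binds the LHX cofactor LDB1, was above 0 in all 5, from 19.4 FPKM (skin label) to 129 FPKM (brain label). LDB1 itself stood at 39.8 FPKM under the brain label, 26.9 FPKM under the lung label and 3.9 FPKM under the heart label. LHX2 and LDB1 were thus both above 0 under the lung label. SSBP4, of the family that stabilises LDB proteins, was at 53.5 FPKM under the lung label and 3.92 FPKM under the limb label, and SSBP2 was highest under the limb label, at 72.1 FPKM. ISL1 was listed only under the limb label, at 29.5 FPKM, and LHX1, LHX3, LHX4 and LHX5 were listed at 0 throughout.

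Close relatives of MAB21L1 and FABP7 followed other patterns across the libraries. MAB21L2, which also acts in eye development, was listed only under the brain label, at 5.64 FPKM, and MAB21L3 and MAB21L4 were listed at 0. FABP3, the heart-type carrier, was highest under the skin label, at 324 FPKM, and was listed at 0 under the limb label. It exceeded FABP7 under the skin label and under the lung label, in the latter at 246 against 70.5 FPKM. FABP5, the epidermal carrier, ran from 0 under the limb label to 55.3 FPKM under the brain label. FABP7 was the only one of the 9 FABP genes above 0 in all 5 libraries.

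Forebrain patterning factors and inducing signals were counted in the same way. Of 15 patterning factors, 4 had a value above 0 in any library and 0 in all 5. HESX1, a repressor of the anterior forebrain and pituitary, was listed only under the heart label, at 11.5 FPKM. GLI3 was at 5.85 FPKM under the brain label and 0.76 FPKM under the lung label, ZIC2 at most at 1.94 FPKM, and EMX1, EMX2, DLX1 and DLX2 were listed at 0. Of 17 signals, receptors and inhibitors, 7 were above 0 in at least 1 library. The secreted protein DKK3 ranged from 94.9 FPKM (lung label) to 337 FPKM (skin label). SFRP2, which binds WNT proteins, stood at 27.7 to 102 FPKM in 4 libraries, with the highest value under the lung label, and was listed at 0 under the limb label. FGF19 at 35.1 FPKM and BMP7 at 18.7 FPKM were listed only under the brain label, while BMP4, FGF8, SHH and WNT3 were listed at 0 in all 5.

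Markers of cells that use these regulators were counted beside them. Of 12 neural retina markers 0 were above 0 in any library, among them ATOH7, CRX and NRL. Of 20 lens markers 5 were above 0 in at least 1 library. CRYAB, a small heat shock protein that many tissues make, was at 455 to 3143 FPKM. The lens crystallin CRYBB3 was listed only under the lung label, at 75.7 FPKM, and CRYBB1 at 12.1 FPKM under the brain label and 55.5 FPKM under the limb label. CRYAA, the alpha-crystallin largely restricted to the lens, was listed at 0 in all 5, as were CRYBA1, CRYBA2 and CRYBA4.

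Of 14 retinal pigment epithelium markers 3 were above 0 in at least 1 library, with SERPINF1 at 20.4 FPKM under the brain label, RPE65 at 1.44 FPKM under the heart label and RLBP1, TYR, TYRP1 and DCT at 0. Of 10 markers of the ciliary body and iris 2 were above 0, MAB21L2 and the carbonic anhydrase CA2, the latter at 17.0 to 64.0 FPKM in 4 libraries. Of 10 corneal and conjunctival markers 2 were above 0, the keratin KRT5 under the lung label and the epithelial factor EHF at 4.18 FPKM under the heart label.

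Of 12 markers of radial glia and astrocytes other than FABP7, 6 were above 0 in at least 1 library. VIM, an intermediate filament that many cell types hold, was at 1011 to 2251 FPKM and NES, the filament of neural progenitors, was above 0 in all 5. NES was lowest under the lung label, where FABP7 was lowest too, but highest under the brain label, where FABP7 was not. S100B was at 201 FPKM under the heart label and 30.8 FPKM under the skin label, SLC1A3 at 14.3, 13.7 and 3 FPKM under the brain, heart and skin labels, and GFAP, AQP4, HES5 and SLC1A2 were listed at 0 throughout. The summed level of the whole list, FABP7 included, ran from 1089 FPKM (lung label) to 2679 FPKM (heart label). VIM made up most of this sum in each library, at 1011 FPKM under the lung label and 2230 FPKM under the heart label. The sum is therefore no measure of radial glia or astrocytes. Of 8 Schwann and neural crest markers 3 were above 0 in at least 1 library, with SOX10 at 0. The part of any of these cell types in the values of the 9 genes was not tested.

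**Figure D4:**
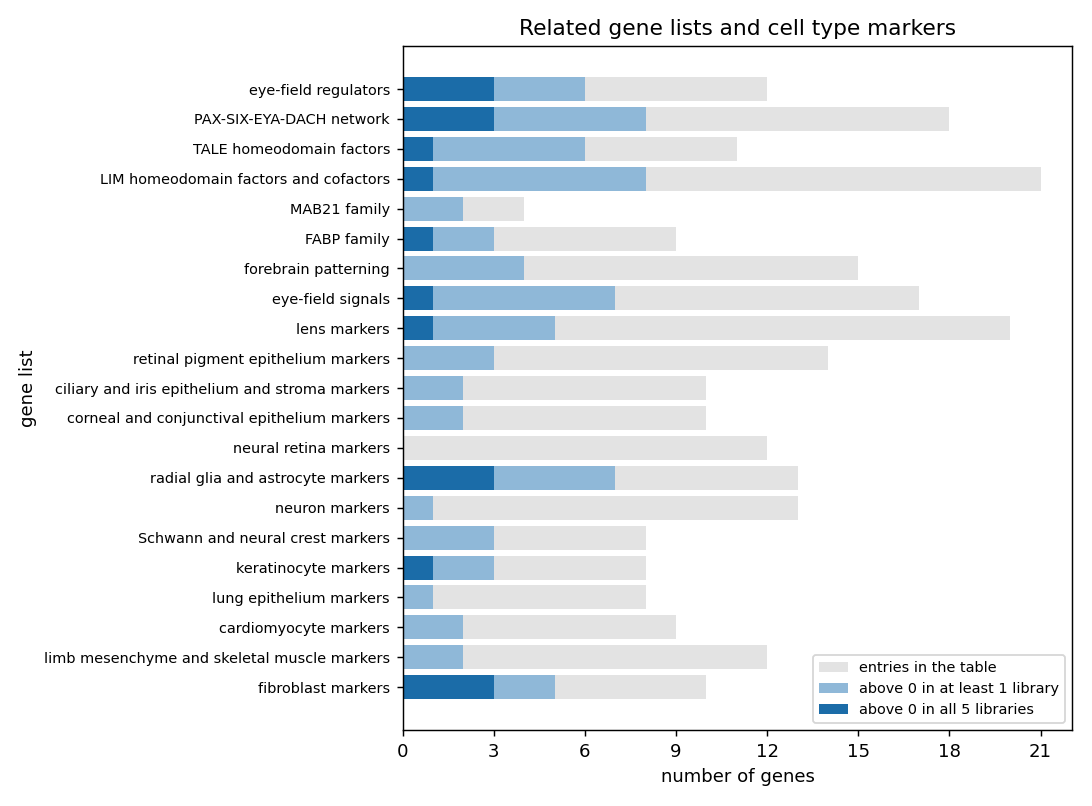
Number of genes in each list (grey), above 0 in at least 1 library (light blue) and above 0 in all 5 libraries (dark blue), for 8 lists of related genes and 13 lists of cell type markers, the 9 genes included where they belong to a list. Neural retina markers have 0 of 12 genes above 0, and eye-field regulators 6 of 12.

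Collagen genes COL1A1, COL1A2 and COL3A1 were above 0 in all 5 libraries beside PAX6, SIX3, MEIS1 and FABP7. COL1A2 ranged from 6 FPKM under the lung label to 523 FPKM under the heart label. MAB21L1 was highest in the first of these and listed at 0 in the second. The fibroblast markers were not uniform between these libraries. COL1A1 and COL3A1 were also lower under the lung label than under the heart label, at 37.2 against 191 FPKM and 33.5 against 72.1 FPKM. FBLN1 and PDGFRA were higher under the lung label, at 42.4 against 16.2 FPKM and 1.57 against 0 FPKM. Of 10 fibroblast markers 5 were above 0 in at least 1 library, and DCN, LUM, PDGFRB and THY1 were listed at 0.

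The genes whose pattern over the 5 libraries was most like that of each regulator were found by the mean absolute difference between centred log2(FPKM + 1) values, among 4629 named genes whose mean reached 10 FPKM. For PAX6 these were FAU, which encodes a ribosomal protein fused to a ubiquitin-like protein, at a mean difference of 0.070, CCDC124 at 0.073 and JOSD2 at 0.079. FAU stood at 4303, 3576, 6348, 2398 and 2920 FPKM under the brain, skin, lung, heart and limb labels, the same order of libraries as PAX6 at a far higher level. For SIX3 they were PIH1D1 at 0.082, the RNA-binding protein HNRNPA2B1 at 0.11 and the heterochromatin protein HP1BP3 at 0.17. For FABP7 they were TMEM50A at 0.045, SEC61B, a subunit of the protein-conducting channel of the endoplasmic reticulum, at 0.057 and GABARAPL2 at 0.075. For MEIS1 they were COG2 at 0.24, GGTA1 at 0.41 and the cell cycle inhibitor CDKN1A at 0.45. Within a mean difference of 0.25 lay 68 genes for PAX6, 68 for FABP7, 10 for SIX3 and 1 for MEIS1. With 5 libraries and this many genes, likeness is frequent and is given as a description only.

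Among the 9 genes themselves, of those above 0 in all libraries, the smallest mean difference was 0.69, between PAX6 and FABP7. It was followed by PAX6 and SIX3 at 0.78. Both distances were larger than those from PAX6 to its 3 nearest genes of the table. PAX6 and FABP7 did not share a pattern, since their highest and lowest libraries, lung and heart label, were reversed. Their ranges were narrow, at 1.30 and 1.09 on the log2 scale, which keeps this measure small. MEIS1 lay at 1.31 from SIX3, 1.69 from PAX6 and 1.76 from FABP7.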

How the data were processed

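The authors' deposited table gives 27607 genes in 5 libraries by Ensembl identifier, 19856 of them with a name. Per the submitters' processing notes, bcl2fastq, STAR and RSEM were used with the ARS-UCD1.2 build, and their versions, the annotation and any filters are not stated there. The deposited values were taken as FPKM by elimination, since they are not whole numbers and each library sums to more than the fixed total of TPM. These points do not exclude fractional count estimates, so the unit stays an assumption. FPKM scales with the total, so a change in a few abundant genes shifts all others. No counts could be recovered.

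Values were used as deposited, and the ratios given between libraries are of these values. For logarithms and for the 4-fold rules 1 was added, which understates differences of low genes. No model or test was used. Named genes were all 9 regulators, list genes above 0 in all 5 libraries, up to 4 others of highest mean, some defining genes at 0 (up to 4 in list order) and the 3 nearest patterns, with a few further list genes chosen after their values were seen. The 9 genes and the lists were chosen with earlier results of these data known. Calculations used Python 3.11.15, numpy 2.4.6 and pandas 2.3.3. Some genes of the lists are counted but not reported here by name.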

Additional observations from a re-analysis of the deposited data

How the results depend on the processing

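The alternatives were other minimums, amounts added, ratios and scalings, the median as reference, and each library left out. Rescaling by the median ratio raised the values of the heart-labelled library by 0.14 on the log2 scale, the largest move of a library under that scaling, and under the 3 rescalings the same 5 genes differed at least 4-fold, all 9 kept their highest library and the 4 genes above 0 throughout kept their order of libraries. With 5 added in place of 1, the genes differing at least 4-fold numbered 3 in place of 5, losing SIX3 and EYA2, and the limb-labelled median difference was -0.60. They numbered 7 at a ratio of 2 and 4 at a ratio of 8, and 4 or 5 when 1 library was left out. Genes above 0 in all 5 libraries numbered 3 at a minimum of 1 or 10 FPKM, since MEIS1 drops out, and 4 whichever library was left out.

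With the median of the other 4 as reference, the median difference was -0.092 for the brain label, -0.49 for the limb label and 0 for the skin label. Leaving out 1 other library, it ran from -1.35 to -0.19 for the brain label, from -1.75 to -0.58 for the limb label, from -0.31 to 0 for the skin label, from 0.79 to 1.25 for the lung label and from 0.34 to 0.57 for the heart label. None of these medians reversed in sign. Of the 90 alternative values for the range of single genes, 70 moved by less than 1.5-fold. Without the lung-labelled library the log2 range was 6.10 for MAB21L1, 4.57 for MEIS1 and 0.40 for FABP7. Without the limb-labelled library that of MEIS1 was 3.69. The sizes for genes listed at 0 depend on the amount added, from 3.08 to 8.54 for LHX2 with 5 and 0.1 added. No paired analysis was possible because each label has 1 library. Depth limits the low values: by the rough median worth of 1 read under the brain and heart labels, values of 10 to 20 FPKM may rest on few reads. That worth may be too high, and the other 3 libraries have no such estimate.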

Other observations

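The protein-coding genes next to the 9 regulators, by a RefSeq gene table of the later assembly ARS-UCD2.0 that was used for gene order only, were looked up after the values were seen. The order is that of gene starts, and whether a regulator lies within its neighbour was not examined. The neighbours of PAX6 were both above 0 in all 5 libraries: ELP4, a subunit of the Elongator complex whose introns are known to hold enhancers of PAX6, stood at 21.9, 80.6, 105, 4.5 and 171 FPKM under the brain, skin, lung, heart and limb labels, and RCN1, a calcium-binding protein of the endoplasmic reticulum, at 189, 137, 38.4, 383 and 374 FPKM. ELP4 was lowest in the heart-labelled library, as PAX6 was, but highest in the limb-labelled one, where PAX6 was second lowest.

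RAX, at 2.37 FPKM in the heart-labelled library alone, lies beside GRP (gastrin-releasing peptide), which was at 501 FPKM in that library, 26.5 FPKM under the lung label and 0 in the other 3. In the order of gene starts, MAB21L1 follows NBEA, listed at 0 in all 5 libraries, and precedes RFC3, a subunit of the replication clamp loader. RFC3 stood at 60.5, 357, 115, 0 and 4.36 FPKM under the brain, skin, lung, heart and limb labels. RFC3 and MAB21L1 were both at 0 under the heart label, but RFC3 was highest under the skin label and MAB21L1 under the lung label. The neighbours of SIX3 were SIX2, at 0 throughout, and CAMKMT, at 51.2 FPKM under the brain label only. NEK6, beside LHX2, was lowest in the lung-labelled library, at 25.7 FPKM against 79.3 to 104 FPKM elsewhere, the library that alone held LHX2.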
